A study of Mus musculus with 54 samples.

Results

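The receptors for IL-2, IL-4, IL-7, IL-9, IL-15, and IL-21 share 1 signaling subunit, the common gamma chain, which is encoded by Il2rg. The genes examined here are the 8 mouse genes for the chains of these receptors, chosen by name: Il2ra, Il2rb, Il2rg, Il4ra, Il7r, Il9r, Il15ra, and Il21r. They are 8 of the 55385 genes listed in each of 2 count tables. All 8 had at least 1 read in total, the condition for testing, among 32290 genes tested in the CD5/CD6 experiment and 27780 in the LAT experiment. The rule for choosing them used their names and no value, and they were chosen with earlier results of these data known.

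Naive CD4+ T cells came from pooled lymph nodes and spleens of C57BL/6 mice aged 8 to 10 wk. The CD5/CD6 experiment compared WT, Cd5-/-, Cd6-/-, and Cd5-/-Cd6-/- cells, enriched with a magnetic kit from mice that lacked the gene in every cell. The LAT experiment compared WT and Lat-/- cells that a cell sorter separated by their human DTR, kept in WT and lost in Lat-/- cells; all these mice carried both Lat fl-dtr and maT-Cre, so the WT cells are not cells of unmodified mice. Cells of each genotype were left unstimulated (0 h) or kept for 4 h or 20 h on plate-bound anti-CD3 (3 µg/ml) with anti-CD28 (1 µg/ml). Every genotype and time had 3 samples, called biological replicates by the submitters (12 groups for CD5/CD6 and 6 for LAT). No sample is labelled as unstimulated at 4 h or 20 h. Effects of stimulation and of time in culture therefore cannot be told apart. The comparisons ask which RNA levels depend on each of these 3 proteins before and after T cell activation.

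Each receptor pairs the common gamma chain with private chains. IL-2Rα (Il2ra, CD25) raises the affinity of the IL-2 receptor, IL-2Rβ (Il2rb, CD122) serves both the IL-2 and the IL-15 receptor, IL-15Rα (Il15ra) presents IL-15, and IL-4Rα, IL-7Rα, IL-9R, and IL-21R pair directly with the gamma chain. Signals pass through JAK1 and JAK3 to STAT proteins. Naive T cells are known for their dependence on IL-7 for survival, whereas activated T cells proliferate in response to IL-2.

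The 8 genes lie on 5 chromosomes of GRCm38, and 4 of them form neighboring pairs. Il2ra (chromosome 2, 11642807 to 11693193, plus strand) and Il15ra (chromosome 2, 11705290 to 11734317, plus strand) are separated by 12096 bases. Il4ra (chromosome 7, 125552120 to 125579474, plus strand) and Il21r (chromosome 7, 125603429 to 125633570, plus strand) are separated by 23954 bases and lie 784349 and 730253 bases from Lat. Il2rb (78479256 to 78495271) and Il7r (9505788 to 9530176) are on the minus strand of chromosome 15, Il2rg (101264378 to 101268255) on the minus strand of chromosome X, and Il9r (32187541 to 32200279) on the minus strand of chromosome 11. Il2rg overlaps another protein-coding model on its own strand (Gm20489), Il2ra an unclassified model on its own strand (Gm37881), and Il4ra an antisense model (Gm44876). How overlapping genes and strand were handled in counting is not given in the sources used here, so the absolute levels of these 3 genes are uncertain to that extent.

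The start regions of Il2ra and Il7r are shown because these genes had the largest rise and the largest fall of the 8 in the CD5/CD6 experiment (WT cells after 20 h). Both are RefSeq windows of 300 bases (250 before the start site and 50 after it, GRCm38.p6), chr2:11642542-11642841 on the plus strand for Il2ra and chr15:9529827-9530126 on the minus strand for Il7r, written 5′ to 3′. Capitals mark matches, on either strand, to a core of NFAT sites (GGAAA), a STAT5 motif (TTCNNNGAA), or the NF-kappaB motif.
Il2ra: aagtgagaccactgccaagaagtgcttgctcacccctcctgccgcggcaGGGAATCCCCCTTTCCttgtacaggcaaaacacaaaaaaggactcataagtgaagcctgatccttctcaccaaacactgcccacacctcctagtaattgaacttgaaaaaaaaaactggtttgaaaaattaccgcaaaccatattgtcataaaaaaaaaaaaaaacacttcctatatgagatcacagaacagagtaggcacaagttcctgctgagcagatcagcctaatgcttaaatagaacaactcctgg
Il7r: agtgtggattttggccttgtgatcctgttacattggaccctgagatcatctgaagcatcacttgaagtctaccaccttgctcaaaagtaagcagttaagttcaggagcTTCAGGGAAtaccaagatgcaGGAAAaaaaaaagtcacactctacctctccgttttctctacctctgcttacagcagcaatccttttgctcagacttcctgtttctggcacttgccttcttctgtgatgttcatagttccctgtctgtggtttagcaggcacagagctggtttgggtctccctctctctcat
The Il2ra window held 3 overlapping matches to the NF-kappaB motif when both strands were counted. The same bases at -201 from the start site matched on both strands, and a further match started at -200. A match to GGAAA lay on the opposite strand at -190. The Il7r window held 1 match to TTCNNNGAA at -142 and 1 to GGAAA at -121. Neither window matched the FOXO motif (GTAAACA) or the AP-1 motif (TGANTCA). Windows of 7 of the 8 genes were at hand, all but that of Il2rb. Of 32841 windows of the same length, 8.46% held the NF-kappaB motif, 8.3% TTCNNNGAA, 61.4% GGAAA, 3.65% GTAAACA, and 7.81% TGANTCA. These matches describe letters, not bound sites.

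The libraries held 20554354 to 45222554 counts in the CD5/CD6 experiment and 17784644 to 28501095 in the LAT experiment. In 2 unstimulated libraries, Cd5 and Cd6 went against the labels. Levels are given as CPM, the counts scaled by the library total times its TMM factor (a factor set by the bulk of the genes). The library labelled Cd5-/- replicate 2 had 719 CPM of Cd5 (129 and 105 CPM in the others of its group) and 329 CPM of Cd6. The library labelled Cd6-/- replicate 2 had 1203 CPM of Cd6 (349 and 251 CPM in the others) and 172 CPM of Cd5. For both genes, each was thus near the libraries of the other label. An exchange of these 2 labels was not tested. Both were kept under their labels, and the main results on the 8 genes that rest on them are also given without them. With its labels as given, the Cd6-/- group at 0 h did not differ from WT in Cd6 by the test. Lat RNA in the LAT experiment measured 214 to 292 CPM in unstimulated WT cells and 11.6 to 19.1 CPM in Lat-/- cells. Unstimulated WT cells of the CD5/CD6 experiment had more, at 671, 649, and 792 CPM. In the LAT experiment, all 8 markers of naive CD4 T cells were above 3 counts in every library.

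Unstimulated WT cells had abundant RNA for the gamma chain and for the IL-7, IL-21, and IL-4 receptors, and little for IL-2Rα, IL-15Rα, and IL-9R. Compared per gene length, as CPM per kb, the mean levels in the CD5/CD6 experiment were 158 ± 34.3 for Il2rg, 129 ± 14.4 for Il7r, 108 ± 11.7 for Il21r, and 82.0 ± 5.14 for Il4ra (SD, n = 3). They were 27.9 ± 4.18 for Il2rb, 3.67 ± 0.177 for Il2ra, 1.18 ± 0.0874 for Il15ra, and 0.366 ± 0.153 for Il9r. Il2rg and Il7r, and Il7r and Il21r, overlapped in their ranges over samples, and every later step down was larger than the ranges. The same order was found in unstimulated WT cells of the LAT experiment, from 209 ± 54.7 CPM per kb for Il2rg to 36.5 ± 7.79 for Il2rb, 9.65 ± 2.89 for Il2ra, 1.49 ± 0.160 for Il15ra, and 0.0565 ± 0.0504 for Il9r. There, Il7r (124 ± 5.93) and Il21r (117 ± 5.81) were the neighbors that overlapped.

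The order was different in stimulated cells. After 20 h in the CD5/CD6 experiment, the 3 chains of the high-affinity IL-2 receptor led in WT cells, with 131 ± 5.38 CPM per kb for Il2rg, 113 ± 13.4 for Il2rb, and 97.1 ± 14.6 for Il2ra, whereas Il7r was at 2.23 ± 0.233. Each of the 3 overlapped with its neighbor in this order, Il2ra also with Il21r (79.4 ± 6.98). Beside the gamma chain in the same library, Il2ra went from 0.0240 ± 0.00531 of the Il2rg level at 0 h to 0.743 ± 0.143 at 20 h (both per kb, n = 3), and Il7r from 0.847 ± 0.203 to 0.0171 ± 0.00248. In the LAT experiment, these ratios in WT cells went from 0.04996 ± 0.0239 to 0.848 ± 0.0543 for Il2ra and from 0.621 ± 0.167 to 0.0320 ± 0.0145 for Il7r. In the CD5/CD6 experiment, the summed level of the 8 genes in WT cells was 509.7 ± 51.1 CPM per kb at 0 h, 867 ± 14.2 at 4 h, and 469.8 ± 16.4 at 20 h.

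**Figure D1:**
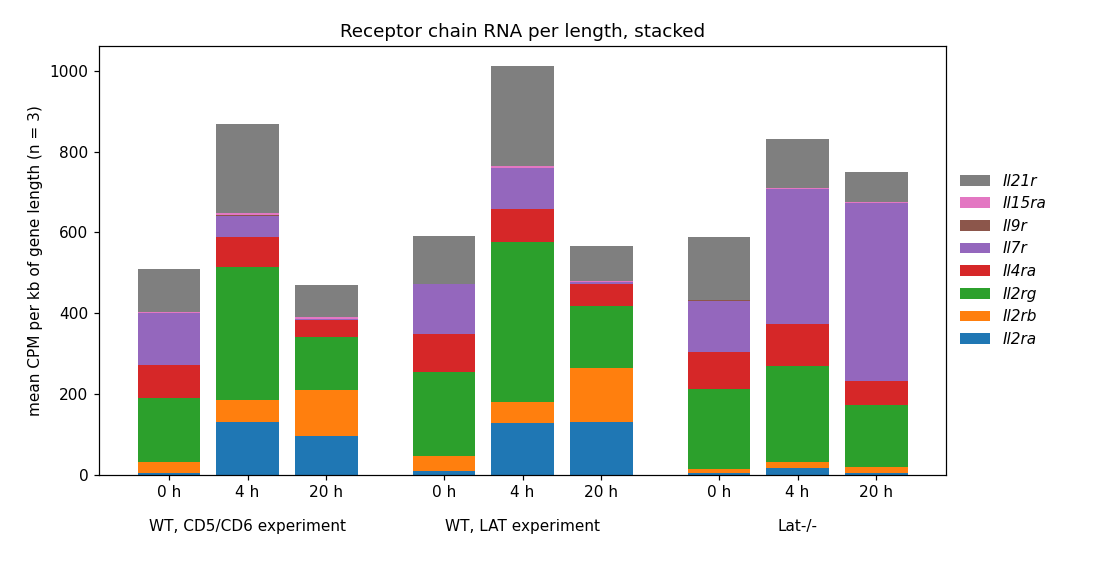
Mean level of each receptor gene in CPM per kb of gene length (n = 3), stacked by gene, for WT cells of both experiments and for Lat-/- cells at 0, 4, and 20 h. Il7r fills 441 of the 748 CPM per kb in Lat-/- cells at 20 h and almost none of the bars of WT cells at 20 h.

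Il2ra had the largest rise of the 8 genes. In the CD5/CD6 experiment, its level in WT cells was 20.1, 22.1, and 20.8 CPM at 0 h, 895, 739, and 612 CPM at 4 h, and 641, 549, and 474 CPM at 20 h. The stimulated samples lay far above the unstimulated ones. The log2 fold change was 5.16 at 4 h (SE 0.22, adjusted p = 1.12e-32) and 4.72 at 20 h (SE 0.22, adjusted p = 3.3e-31). All adjusted p-values come from the quasi-likelihood test of edgeR, adjusted over all genes by the Benjamini-Hochberg method, and a gene was called changed when its fold change exceeded 2 with an adjusted p under 0.05.

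Il2rb was highest at 20 h. It measured 109, 109, and 140.2 CPM at 0 h, 250.0, 240.4, and 197 CPM at 4 h, and 549, 437, and 471 CPM at 20 h, with no overlap between times. Its log2 fold change was 0.94 at 4 h (SE 0.18, adjusted p = 1.15e-05), which is under the fold threshold, and 2.02 at 20 h (SE 0.18, adjusted p = 7.56e-16). The value at 4 h passed the threshold without replicate 3 (1.17) and, barely, with the compared groups fitted by themselves. From 4 h to 20 h, it rose by 1.08 (adjusted p = 6.26e-07), whereas Il2ra did not pass the test (-0.43, adjusted p = 0.0716).

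Il15ra, the private chain of the IL-15 receptor, also rose by 4 h, from a far lower level than its neighbor Il2ra. It went from 5.25, 5.60, and 4.83 CPM at 0 h to 26.7, 34.9, and 30.4 CPM at 4 h and 13.8, 22.0, and 25.3 CPM at 20 h. The log2 fold change was 2.55 at 4 h (SE 0.23, adjusted p = 8.98e-16) and 1.96 at 20 h (SE 0.23, adjusted p = 1.1e-11).

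Il2rg and Il21r rose at 4 h and then fell. Il2rg measured 342, 317, and 469.9 CPM at 0 h, 799, 722, and 836 CPM at 4 h, and 299.9, 316, and 325 CPM at 20 h. Il21r measured 327, 346, and 401 CPM, then 781, 698, and 699 CPM, then 239, 269, and 284 CPM. Both were called at 4 h (log2 fold changes 1.06 and 1.02, adjusted p = 1.47e-08 and 1.42e-08), and both fell from 4 h to 20 h (-1.32 and -1.46, adjusted p = 1.99e-11 and 1.29e-13). The rise at 4 h is close to the fold threshold. Neither gene was called with library totals in place of TMM factors (0.82 and 0.78), without replicate 1 (0.98 and 0.90), or without replicate 2, where both values were just under 1. Il21r was also just under 1 without the 2 unstimulated libraries that went against their labels.

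Il7r had the largest fall. The IL-7 receptor gene measured 680.2, 557, and 573 CPM at 0 h, 133, 287, and 328 CPM at 4 h, and 11.5, 10.4, and 9.32 CPM at 20 h, with no overlap between times. The log2 fold change was -1.28 at 4 h (SE 0.21, adjusted p = 4.73e-07) and -5.85 at 20 h (SE 0.26, adjusted p = 1.62e-32). Library 1 was the lowest at 4 h, and without replicate 1 the change at 4 h was -0.88, under the fold threshold.

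Il4ra, whose product binds IL-4 and IL-13, went from 502, 457, and 517 CPM at 0 h to 363, 506, and 465 CPM at 4 h and 272, 243, and 238 CPM at 20 h. The samples at 20 h lay below all others. The log2 fold change at 20 h was -0.97 (SE 0.16, adjusted p = 2.8e-07), just under the fold threshold, and it passed that threshold with RLE factors (-1.03), library totals (-1.11), DESeq2 (-1.03), and without replicate 1 (-1.02), replicate 2 (-1.05), or the 2 libraries that went against their labels (-1.02).

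Il9r was scarce throughout. Its 3 unstimulated WT libraries of the CD5/CD6 experiment held 197 counts in all, those at 4 h 148, and those at 20 h 5. Scaled by depth, it was 33.5 times lower at 20 h than at 0 h, with a 95% interval from counting error alone of 14.1 to 104, and the fall at 20 h passed the test (adjusted p = 8.08e-10). In these WT libraries, the summed B cell markers were at 100.1 to 550.4 CPM at 0 h and 1.86 to 3.27 CPM at 20 h, and the myeloid markers at 112 to 265 and 0.343 to 0.663 CPM. NK cell markers were at 55.0 to 97.1 and 12.1 to 16.3 CPM, gamma delta T cell markers at 35.7 to 38.2 and 5.197 to 7.53 CPM, naive CD4 T cell markers at 7798 to 9359 and 3291 to 3593 CPM, and memory T cell markers at 119 to 152 and 259 to 316 CPM. Their part in the changes of the receptor genes was not tested. In bulk samples, fewer cells of a type and less RNA per cell cannot be told apart.

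**Figure D2:**
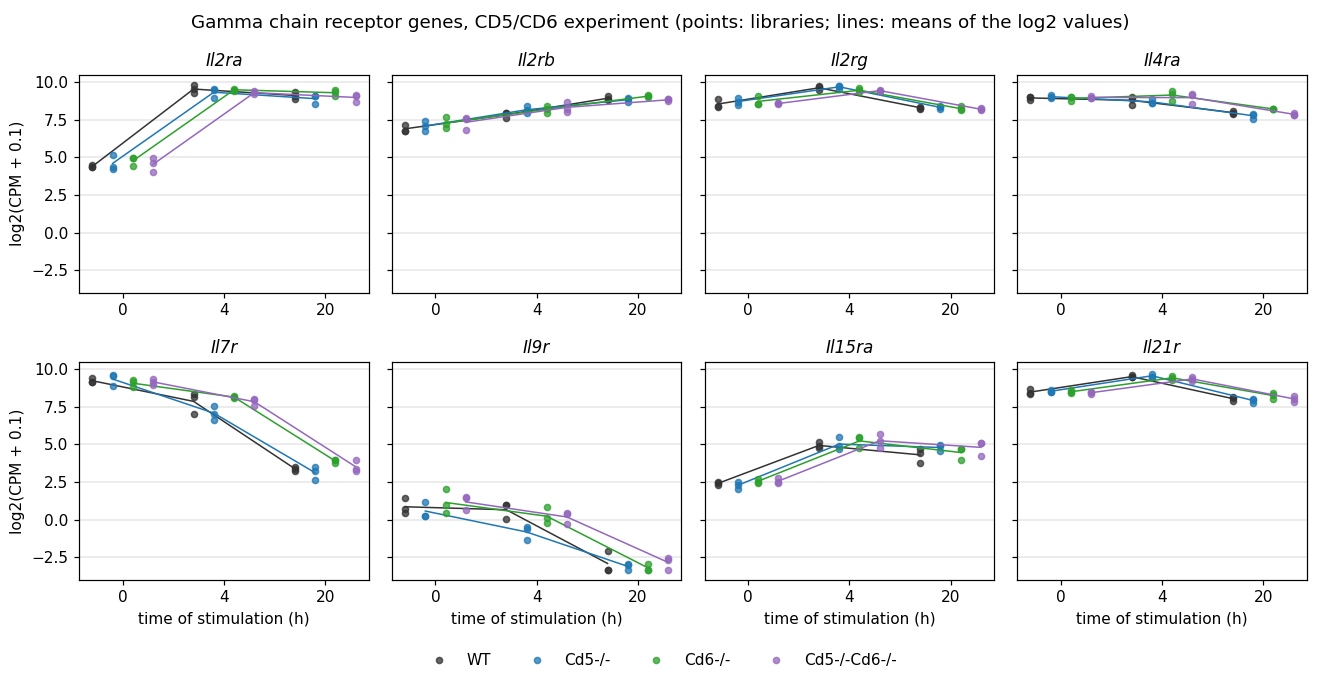
Level of each receptor gene in each library of the CD5/CD6 experiment, as log2(CPM + 0.1), against the time of stimulation, with 1 point per library and lines through the means of the log2 values of each genotype. Il2ra and Il15ra rise and Il7r falls in all 4 genotypes, whose points lie close together.

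In all, 5 of the 8 genes were called in these WT cells at 4 h and 5 at 20 h, against 19.3% and 29.6% of all genes tested. The count at 4 h was 2 without replicate 1, 3 without replicate 2, and 6 without replicate 3. From 4 h to 20 h, 5 were called, against 21% of all genes. The median log2 fold change of the 8 genes was 0.98 at 4 h and -0.35 at 20 h, and the median over all genes tested was 0 in both comparisons. Over genes averaging 10 counts or more, it was -0.077 and -0.065. The shares of all genes, here and below, include every gene with any read. Of the 32290 genes, 16143 passed a filter on low counts, and in the LAT experiment 13928 of 27780 did. Genes with very few counts can hardly be called. Shares among genes with counts like those of the 8 may be higher and were not computed.

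The responses of cells without CD5, CD6, or both followed the same course. Il2ra rose at 4 h by 4.69 in Cd5-/-, 4.71 in Cd6-/-, and 4.71 in doubly deficient cells on the log2 scale, and Il7r fell at 20 h by 6.22, 5.18, and 5.61. Without the 2 libraries that went against their labels, the rises of Il2ra were 5.04 in Cd5-/- and 4.81 in Cd6-/- cells, and Il7r fell by 6.46 and 5.11. At 4 h, 6, 2, and 3 of the 8 genes were called in the 3 genotypes in this order, against 19.5%, 18%, and 17.2% of all genes. At 20 h, 6, 5, and 6 were called, against 30%, 28.2%, and 30.3%. Il2ra and Il15ra were called at 4 h in every genotype, and the counts at 4 h differed through Il2rb, Il7r, Il9r, and Il21r, those at 20 h through Il4ra. Il7r was at -0.94 in Cd6-/- cells at 4 h, for example, just short of the fold threshold. Without the 2 libraries that went against their labels, the counts were 5 in Cd5-/- and 2 in Cd6-/- cells at 4 h and 6 and 5 at 20 h. The call lost was that of Il9r at 4 h in Cd5-/- cells (-1.55, adjusted p = 0.0109, and -1.15, adjusted p = 0.0944 without these libraries). It was also lost without replicate 2 (adjusted p = 0.103), with adjusted p-values from 0.00265 to 0.103 over all alternatives.

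Between a knockout and WT cells of the CD5/CD6 experiment, 0 of the 8 genes were called at any time by edgeR, and 0 by DESeq2. Among all genes, 0.0619%, 0.0743%, and 0.0186% were called in Cd5-/- cells after 0, 4, and 20 h, 0%, 0.0031%, and 0.0186% in Cd6-/- cells, and 0.0248%, 0.0434%, and 0.0434% in doubly deficient cells. At an unadjusted p under 0.05 the numbers of the 8 genes were 0, 2, and 1 for the Cd5-/- genotype at these times, 2, 2, and 1 for Cd6-/-, and 1, 1, and 1 for the double deficiency. Of the 32290 genes tested, 955, 1096, and 723, then 707, 885, and 541, then 594, 891, and 742 passed the same unadjusted threshold. Without the 2 libraries that went against their labels, 209 of all genes were called at 0 h in Cd5-/- cells (in place of 20) and 20 in Cd6-/- cells (in place of 0), and of the 8 genes still 0. With Il9r set aside for its few counts, the log2 differences ran from -0.83 to 0.51. Il7r in Cd5-/- cells at 4 h was the only 1 of these 7 genes, at any time in any of the 3 knockouts, whose 95% interval reached past a fold change of 2. These intervals rest on a spread that the CD5/CD6 fit drew largely from all genes, not on each gene's own spread alone.

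That difference of Il7r rested on 99.5, 130.2, and 190.3 CPM in Cd5-/- cells against 133, 287, and 328 CPM in WT cells at 4 h. The groups overlapped, and the log2 difference was -0.83 (SE 0.21, 95% interval -1.24 to -0.42, adjusted p = 0.105). With the spread drawn largely from all genes, this SE and interval do not measure the spread of these libraries by themselves. Il7r was lower in Cd5-/- cells in each of the 3 same-numbered pairs, and with the replicate block the difference was -0.82 (adjusted p = 0.019). Over the alternatives, the adjusted p ran from 4.95e-08 (without replicate 3) to 0.706 (with the filter on low counts), was under 0.05 in 4 of them, and the difference stayed under the fold threshold in each. The response of Il7r at 4 h differed between Cd5-/- and WT cells by -0.98 (SE 0.29, adjusted p = 1).

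The IL-2 receptor chains lay close to WT in each knockout. Il2ra measured 669.7, 631, and 582 CPM at 4 h in Cd5-/-Cd6-/- cells, a difference of -0.26 (95% interval -0.62 to 0.11), and differed by -0.13 (-0.49 to 0.24) at 20 h. Il2rb at 0 h was at 0.20 (Cd5-/-), 0.40 (Cd6-/-), and 0.47 (Cd5-/-Cd6-/-) relative to WT, each with an adjusted p of 1. Without the libraries that went against their labels, Il2rb at 0 h was at 0.01 in Cd5-/- and 0.42 in Cd6-/- cells, and Il2ra moved from 0.26 to -0.10 and from 0.39 to 0.26. These p-values miss the threshold and do not show that the genotypes were alike. When each knockout's response was tested against the WT response, 0 of the 8 genes were called, against 0.0031% and 0.0031% (Cd5-/- at 4 h and 20 h), 0% and 0.0031% (Cd6-/-), and 0% and 0% (Cd5-/-Cd6-/-) of all genes. At an unadjusted p under 0.05, 1 and 0, 0 and 1, and 0 and 1 of the 8 passed in the same order, beside 667 and 739, 734 and 670, and 671 and 559 of the 32290 genes, and DESeq2 also called 0 of the 8.

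**Figure D3:**
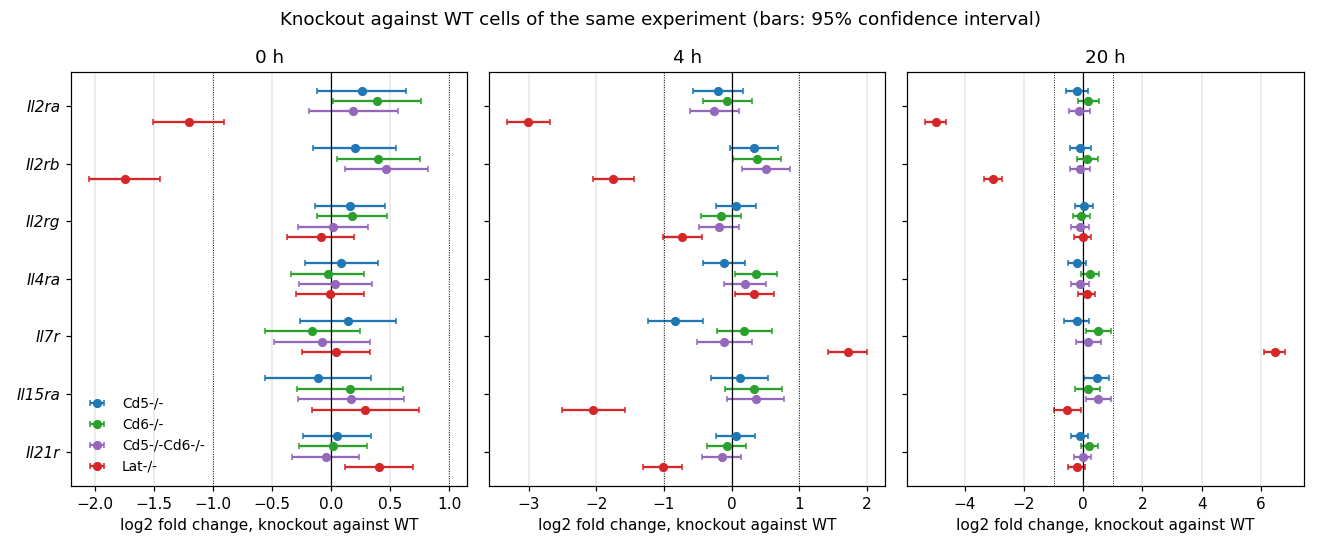
Log2 fold change of 7 receptor genes (all but Il9r) between each knockout and WT cells of its own experiment at 0, 4, and 20 h, with 95% confidence intervals and dotted lines at a fold change of 2. Cd5-/-, Cd6-/-, and Cd5-/-Cd6-/- points stay inside the dotted lines, and Lat-/- reaches -4.99 for Il2ra and 6.47 for Il7r at 20 h.

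WT cells of the LAT experiment raised the same IL-2 receptor chains. Il2ra went from 50.5, 41.5, and 73.5 CPM at 0 h to 855, 835, and 509.8 CPM at 4 h and 757, 757, and 722 CPM at 20 h. It rose by 3.73 at 4 h (SE 0.16, adjusted p = 7.13e-111) and 3.76 at 20 h (SE 0.16, adjusted p = 3.52e-112). In the LAT fit the spread came from all genes and a gene's own spread had no weight. For most calls, the highest adjusted p over 10 alternative analyses is therefore given as well, here 4e-07 at 4 h and 2.68e-07 at 20 h. Il2rb rose from 143, 132, and 195 CPM at 0 h to 594, 588, and 538 CPM at 20 h (1.87, adjusted p = 5.99e-33, highest over the alternatives 1.58e-05).

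Il7r in these cells was still high at 4 h. It measured 577, 548, and 603 CPM at 0 h, 309.6, 369.8, and 751 CPM at 4 h, and 16.8, 16.4, and 36.5 CPM at 20 h. Library 3 at 4 h lay above every unstimulated sample and was also the lowest of its group for Il2ra. The log2 fold change was -0.27 at 4 h (adjusted p = 0.172) and -0.74 without replicate 3 (adjusted p = 4.68e-06), under the fold threshold in both. At 20 h Il7r fell by 4.63 (SE 0.17, adjusted p = 1.07e-159, highest over the alternatives 1.35e-09).

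The gamma chain and the IL-21 receptor were again highest at 4 h. Il2rg measured 1011, 1070, and 767 CPM at 4 h and 433, 648, and 413 CPM at 0 h, a change of 0.93 (adjusted p = 2.68e-09) under the fold threshold. Il21r measured 881, 883, and 694 CPM at 4 h and 406, 369, and 397 CPM at 0 h, a change of 1.07 (adjusted p = 7.19e-12) that was under the threshold with library totals (0.83) and without replicate 1 (0.99) or replicate 2 (0.92). Il15ra rose from 7.22, 5.83, and 6.79 CPM to 21.7, 21.9, and 13.3 CPM (1.52, adjusted p = 4.63e-10) and was at 7.49, 6.34, and 8.84 CPM at 20 h. In all, 4, 4, and 5 of the 8 genes were called in these WT cells at 4 h, at 20 h, and between both times, against 17.3%, 23.5%, and 17.2% of all genes.

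One call at 4 h and 1 at 20 h was Il9r, which had 23 counts over the 3 libraries at 0 h, 1 at 4 h, and 0 at 20 h. Its depth-scaled level at 4 h was 20.5 times lower than at 0 h (95% counting interval 3.33 to 844). At 20 h, the lower end of the same counting interval was a 5.37-fold fall. With 3 counts over the group as the floor, the fall at 20 h was 7.16-fold. The call at 4 h (adjusted p = 0.0281) was lost without replicate 1 (0.192), without replicate 3 (0.263), with DESeq2 (0.0909), and with the replicate block (0.0628). The call at 20 h (adjusted p = 0.00333) was lost without replicate 3 (0.22).

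In Lat-/- cells, the IL-7 receptor gene moved the other way. Il7r measured 528, 654, and 599 CPM at 0 h, 1361, 1659, and 1671 CPM at 4 h, and 1862, 2441, and 1867 CPM at 20 h. All stimulated samples lay above all unstimulated ones. Il7r rose by 1.40 at 4 h (SE 0.15, adjusted p = 3.56e-19) and 1.79 at 20 h (SE 0.15, adjusted p = 1.72e-30), with highest values over the alternatives of 0.00113 and 0.000351. Per kb, it was the highest of the 8 genes at 4 h (335 ± 37.7 CPM per kb) and at 20 h (441 ± 71.4), above Il2rg (239 ± 35.5 and 153 ± 34.5) with no overlap.

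Il2ra rose in Lat-/- cells at 4 h and then fell. It measured 24.6, 18.6, and 28.5 CPM at 0 h, 98.2, 95.3, and 80.4 CPM at 4 h, and 18.5, 7.61, and 44.6 CPM at 20 h. The rise at 4 h was 1.93 (SE 0.16, adjusted p = 5.69e-33, highest over the alternatives 0.000973). From 4 h to 20 h it fell by 1.96 (adjusted p = 1.57e-33), and at 20 h the change from 0 h was -0.02 (adjusted p = 1). Library 3 at 20 h was the highest for Il2ra and for Il2rb, and without replicate 3 the change of Il2ra at 20 h was -0.72, under the fold threshold.

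Il21r fell at 20 h in Lat-/- cells. It went from 499, 567, and 482 CPM at 0 h to 233, 233, and 268 CPM at 20 h (-1.08, adjusted p = 3.53e-11), and without replicate 2 this change was -0.97, under the threshold. Il2rb went from 42.1, 32.1, and 65.8 CPM to 59.6, 39.6, and 109 CPM at 20 h, with overlap (0.57, adjusted p = 0.00249). Il15ra was at 4.18, 4.17, and 5.41 CPM at 4 h against 7.70, 6.43, and 10.1 CPM at 0 h (-0.82, adjusted p = 0.00567). The changes of Il2rb and Il15ra were under the fold threshold, and the spread of these genes' own libraries had no weight in their p-values. At 4 h, at 20 h, and between these times, 2, 2, and 1 of the 8 genes were called in Lat-/- cells, against 6.7%, 4.21%, and 4.1% of all genes.

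**Figure D4:**
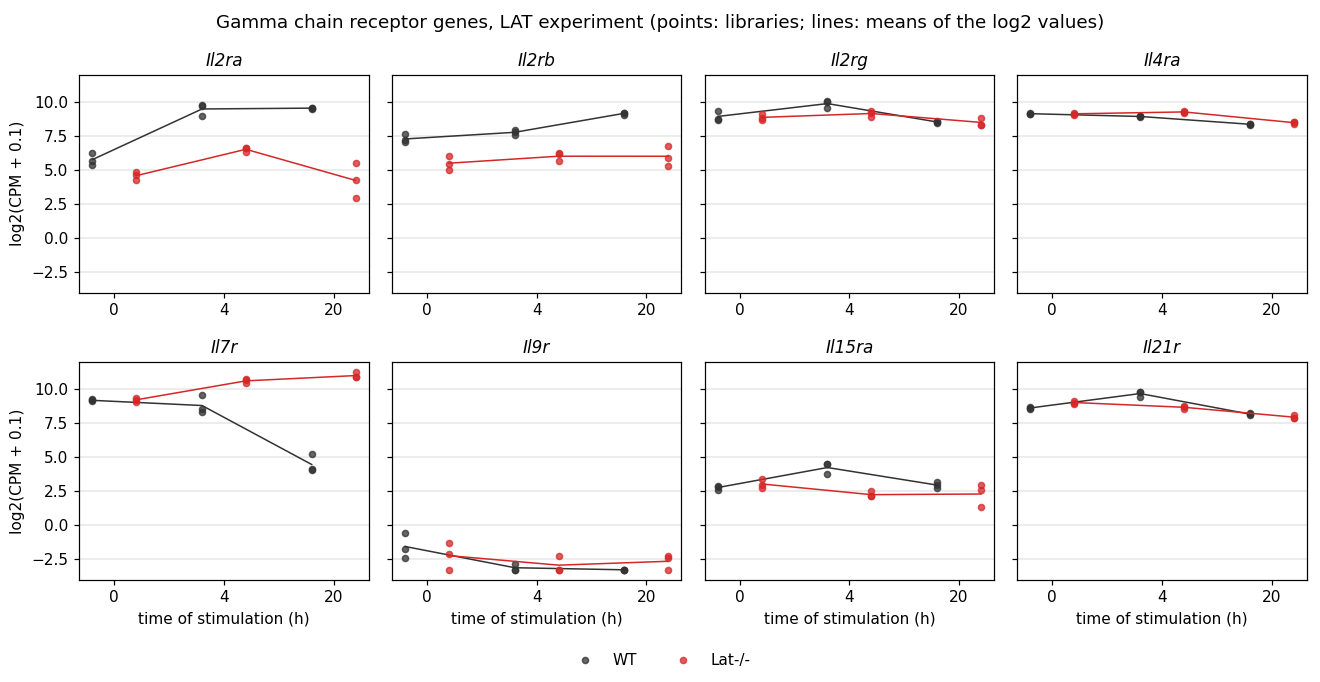
Level of each receptor gene in each library of the LAT experiment, as log2(CPM + 0.1), against the time of stimulation, with 1 point per library and lines through the means of the log2 values of each genotype. Lat-/- points lie below WT points for Il2ra and Il2rb at every time and above them for Il7r at 4 h and 20 h.

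Before stimulation, Lat-/- cells already had less Il2ra and Il2rb RNA. Il2rb measured 42.1, 32.1, and 65.8 CPM against 143, 132, and 195 CPM in WT cells, with no overlap (-1.74, SE 0.15, adjusted p = 1.72e-26, highest over the alternatives 0.00393). Il2ra measured 24.6, 18.6, and 28.5 CPM against 50.5, 41.5, and 73.5 CPM, also with no overlap (-1.20, SE 0.15, adjusted p = 2.38e-12). Il2ra was not called with the filter on low counts (adjusted p = 0.212) or by DESeq2 (adjusted p = 0.184), analyses in which a gene's own spread carries weight. The 2 genes of 8 called, or 1 by those analyses, stand against 0.961% of all genes.

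Markers of some other cell types were also lower in these cells, and those of others were not. In unstimulated Lat-/- cells, 6 of 6 markers of regulatory T cells, which carry CD25 and CD122, were lower. Their summed level was 42.8 to 70.9 CPM against 134 to 198 CPM in WT cells. Of the markers of NK cells, which carry CD122, 5 of 6 were lower, with a summed level of 25.8 to 34.0 CPM against 24.1 to 44.4 CPM. Of the markers of gamma delta T cells, 3 of 5 were lower (14.5 to 16.5 against 31.7 to 45.2 CPM), and of those of memory T cells 0 of 5 (86.6 to 121 against 95.9 to 107 CPM). CD8 T cell markers summed to 32.6 to 35.7 CPM in Lat-/- against 30.3 to 35.0 CPM in WT cells. B cell and myeloid markers summed to at most 4.82 CPM in each unstimulated library of this experiment. The part of these cells in the levels of Il2ra and Il2rb was not tested.

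At 4 h, 5 of the 8 genes differed between Lat-/- and WT cells, against 11.7% of all genes. On the log2 scale, Il2ra was at -3.01 (SE 0.16), Il2rb at -1.75 (SE 0.15), Il15ra at -2.05 (SE 0.24), and Il21r at -1.02 (SE 0.15) relative to WT, and Il7r was higher by 1.71 (SE 0.15). Their adjusted p-values were 2.76e-76, 3.07e-28, 3.25e-16, 1.09e-10, and 1.47e-28, and the highest over the alternatives was 9.64e-05, for Il7r. Il21r was under the fold threshold with library totals (-0.89), without replicate 1 (-0.96), and without replicate 2 (-0.97). Il2rg was at -0.73 (adjusted p = 6.01e-06, under the fold threshold), and Il4ra at 0.34 (adjusted p = 0.0852). The regulatory T cell markers summed to 59.4 to 97.6 CPM in Lat-/- and 187 to 223 CPM in WT cells at this time (5 of 6 lower). Memory T cell markers summed to 95.4 to 129.7 against 226 to 294 CPM (1 of 5 lower), gamma delta T cell markers to 6.83 to 10.5 against 16.1 to 22.6 CPM (3 of 5 lower), NK cell markers to 18.1 to 28.0 against 13.4 to 18.9 CPM (1 of 6 higher, 3 lower), and naive CD4 T cell markers to 9193 to 10601 against 4791 to 6938 CPM (4 of 8 higher). Their part was not tested.

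At 20 h, 3 of the 8 genes differed, against 24.4% of all genes. Il7r was 88.5 times higher in Lat-/- cells (log2 difference 6.47, SE 0.19, adjusted p = 3.65e-262). Il2ra was at -4.99 (SE 0.18, adjusted p = 1.41e-173) and Il2rb at -3.04 (SE 0.16, adjusted p = 4.11e-78) relative to WT. The highest adjusted p over the alternatives was 6.02e-08 among the 3 genes, and the 2 genotypes did not overlap for any of them. Il2rg had 318, 317, and 460.2 CPM in Lat-/- cells against 356, 364, and 384 CPM in WT cells (-0.01, 95% interval -0.30 to 0.28), an interval that excludes a fold change of 2. Il4ra (0.12), Il21r (-0.22), and Il15ra (-0.54, adjusted p = 0.0595) did not pass the test either. Of the 6 markers of regulatory T cells, 3 were lower in Lat-/- cells (47.6 to 57.0 against 154 to 207 CPM in sum), and 4 of 8 markers of naive CD4 T cells were higher (10723 to 11987 against 4082 to 4244 CPM in sum). NK cell markers summed to 51.4 to 67.6 CPM in Lat-/- against 9.50 to 11.9 CPM in WT cells (2 of 6 higher, 1 lower), memory T cell markers to 95.3 to 115 against 212 to 231 CPM (2 of 5 higher, 1 lower), and CD8 T cell markers to 19.5 to 27.5 against 12.4 to 13.8 CPM (1 of 2 lower). The part of these cells was not tested.

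When the responses of Lat-/- and WT cells were tested against each other, 4 of the 8 genes were called at 4 h, against 8.71% of all genes, and 3 at 20 h, against 19.5%. Il7r differed by 1.67 at 4 h (SE 0.21) and 6.43 at 20 h (SE 0.22), and Il2ra by -1.80 (SE 0.21) and -3.78 (SE 0.22). Il15ra (-2.34, SE 0.33) and Il21r (-1.42, SE 0.21) were called at 4 h and Il2rb (-1.30, SE 0.21) at 20 h. Whether these differences changed between 4 h and 20 h was not tested. The highest adjusted p of the 7 calls over the alternatives was 0.0162, for Il2ra at 4 h. The response of Il2rg differed by -0.64 at 4 h (adjusted p = 0.0157, under the fold threshold) and by 0.08 at 20 h (adjusted p = 1).

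**Figure D5:**
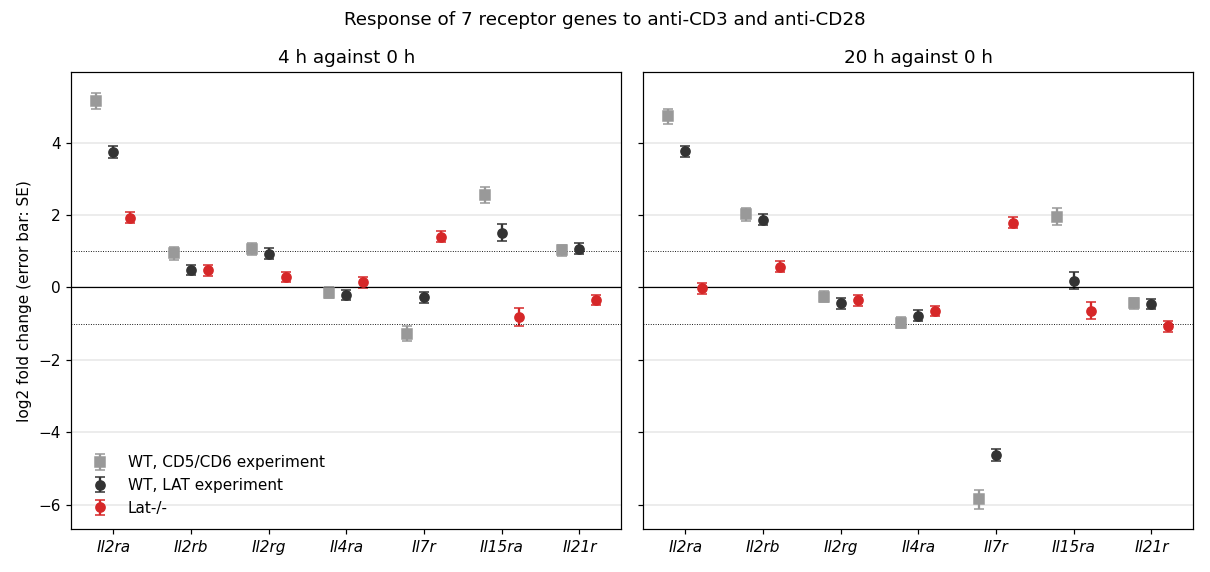
Log2 fold change (± SE) of 7 receptor genes (all but Il9r) after 4 h and 20 h of stimulation, in WT cells of both experiments and in Lat-/- cells, with dotted lines at a fold change of 2. At 20 h, Il7r lies at -5.85 and -4.63 in WT cells and at 1.79 in Lat-/- cells.

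Of 28 other genes of the pathway, listed by role, 7 were higher and 8 lower in WT cells at 20 h in the CD5/CD6 experiment. Of the 26 that were tested in the LAT experiment, 6 were higher and 7 lower in WT cells at 20 h, 1 and 4 in Lat-/- cells, and 7 and 7 in Lat-/- relative to WT cells at 20 h. The median log2 fold change of the list was -0.46, -0.06, 0.05, and 0.41 in these 4 comparisons, beside 0 over all genes, of which 29.6%, 23.5%, 4.21%, and 24.4% were called. Of the list, 0 genes were called between a CD5/CD6 knockout and WT cells by edgeR.

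Among the ligands, Il2 RNA rose with its receptor chains. In the CD5/CD6 experiment, WT cells had 0.162 ± 0.0102 CPM at 0 h, 45.8 ± 8.82 at 4 h, and 165 ± 55.9 CPM at 20 h (SD, n = 3). In Lat-/- cells at 20 h it was at 3.03 ± 2.85 CPM against 71.9 ± 23.1 CPM in WT cells (-4.57 on the log2 scale). Il21 fell in WT cells at 20 h, by 1.74 and 3.62 in the CD5/CD6 and LAT experiments, from levels of 0.733 ± 0.137 and 1.24 ± 0.614 CPM. Il4 was higher in Lat-/- than in WT cells at 20 h, at 0.786 ± 0.0640 against 0.144 ± 0.0988 CPM, and Il7 had 0 counts in every library of the LAT experiment. In the libraries of this experiment, 3 counts correspond to 0.105 to 0.169 CPM. The level of Il4 in WT cells was thus near 3 counts per library.

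Among the kinases and STAT factors, Jak1 fell in WT cells at 20 h. This kinase, which binds several of the private chains, fell by 1.85 and 1.35 in the 2 experiments, and it was higher by 1.95 in Lat-/- than in WT cells at 20 h (1864 ± 279 against 482 ± 52.0 CPM). Its change in Lat-/- cells at 20 h (0.54, adjusted p = 0.00294) was under the fold threshold. Stat5a, which acts downstream of IL-2 and IL-7, rose by 1.17 and 1.40 in WT cells and was at -1.68 in Lat-/- relative to WT cells.

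Among genes regulated by STAT5, Socs2 rose by 3.23 and 2.84 in WT cells of the 2 experiments at 20 h and was at 0.310 ± 0.278 CPM in Lat-/- against 19.2 ± 2.76 CPM in WT cells (-5.92). The kinase gene Pim2 rose by 3.39 and 3.02 and was at -2.71 in Lat-/- relative to WT cells. Socs3, a feedback inhibitor of cytokine signaling, fell by 3.02 and 2.76 in WT cells and was higher by 1.90 in Lat-/- cells. Of the 7 genes of this list, 1 was higher and 3 were lower in Lat-/- than in WT cells at 20 h, against 24.4% of all genes called.

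Of the 4 genes listed as regulators of Il7r, 3 were called in WT cells of both experiments at 20 h, against 29.6% and 23.5% of all genes. Foxo1 and Klf2, transcription factors of quiescent T cells, fell (Foxo1 by 2.63 and 1.79, Klf2 by 5.18 and 3.78). In Lat-/- cells at 20 h, Klf2 was at 932 ± 93.8 CPM against 41.0 ± 4.76 CPM in WT cells (higher by 4.51), and Foxo1 was higher by 1.70. Gfi1, known as a repressor of Il7r, rose by 2.25 and 1.68 in WT cells and was at -2.85 in Lat-/- relative to WT cells.

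For each receptor gene, the 3 genes most like it over the 18 condition means were found by Pearson's r of log2 CPM, centered within each experiment, from 10086 genes that averaged 50 counts or more per library in both tables. For Il2ra they were Klhdc4 (0.991), Lta (0.991), and Shmt1 (0.989), and for Il2rb Lad1 (0.985), Tiam1 (0.970), and Adap1 (0.958). For Il7r they were Zmym5 (0.996), Dyrk2 (0.994), and Klf13 (0.993), and for Il4ra Fas (0.965), H2-Q5 (0.960), and Tnfaip3 (0.955). For Il2rg they were Slc9a8 (0.990), Map3k11 (0.989), and Rbm45 (0.987), and for Il21r E430024P14Rik (0.980), Tatdn2 (0.973), and Rbm45 (0.967). For Il15ra, Dhx30 (0.978) and Qsox2 (0.970) were the closest, and Il9r had too few counts. Within the family, r was largest in size for Il2rg with Il21r (0.97) and Il2ra with Il15ra (0.88). It was 0.85 for Il4ra with Il7r, -0.84 for Il2rb with Il7r, and 0.82 for Il2ra with Il2rb. The condition means share libraries and times of stimulation, and these values are a description. With the CD5/CD6 or the LAT table alone, 5 and 4 of the 21 genes so selected remained.

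Some genes next to the receptor genes are named here, picked after their values were seen. Il4ra and Il21r, the adjacent pair on chromosome 7, had an r of 0.64. Fbh1, beside Il15ra, fell at 4 h in WT cells of both experiments (by 1.32 and 1.02), where Il15ra rose. Spef2, beside Il7r, fell at 20 h (by 1.40 and 1.48) and was higher by 2.16 in Lat-/- than in WT cells at 20 h, as Il7r was, whereas Capsl, on the other side of Il7r, rose at 20 h (4.02 and 2.71) and was at -4.88 in Lat-/- relative to WT cells. C1qtnf6, beside Il2rb, was at -2.50 in Lat-/- relative to WT cells at 20 h.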

How the data were processed

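RNA of naive CD4+ T cells was sequenced in 36 (CD5/CD6) and 18 (LAT) libraries. The authors aligned single reads to the GRCm38 genome using STAR and summarized them by gene using featureCounts. Per the labels, reads were demultiplexed with bcl2fastq 2.17.1.14. The deposited values are raw counts per gene, beside a column of gene lengths in bases, and 0 per-sample columns were left unused. Annotation release and use of strand in counting are not given in the sources used here. Symbols came from an identifier table and matched 55144 of 55385 genes.

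Each table was fitted on its own with edgeR 4.0.16 and limma 3.58.1 under R 4.3.3. Genes with any read were kept, TMM factors were used, and 1 coefficient was fitted per genotype and time, with all libraries of the table sharing the spread. P-values of the quasi-likelihood test were adjusted over all genes by the Benjamini-Hochberg method, and calls required an adjusted p under 0.05 and a fold change over 2. SE was derived from the log2 fold change and the F statistic. The prior degrees of freedom were 50.9 (CD5/CD6) and infinite (LAT), and 4.73 and 6.46 after filterByExpr (16143 and 13928 genes). Level order, ratios, and sums used CPM per kb. The floor was 3 counts, and counting intervals cover counting error only. The submitters call the 3 samples of a condition biological replicates, without saying which came from which mice.

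Alternatives were DESeq2 1.42.0, RLE factors, library totals, filterByExpr, fits of the compared groups alone, a replicate block, fits without each replicate number, adjusted p alone, and fits without the 2 unstimulated libraries that went against their labels. Same-numbered samples are not stated to share a mouse or day. In 11 of 24 (CD5/CD6) and 1 of 11 (LAT) comparisons, every such pair had deviations correlated above 0.1. All replicates of a group differed by more than counting noise. The receptor genes, gene lists, and rules for named genes were chosen with earlier results of these data known. Named pathway genes were those called in both WT responses at 20 h or between Lat-/- and WT cells at 20 h, at most 3 per list, by size of the WT response. Some genes that these rules select are not reported here. In counts simulated for 23682 genes of Cd5-/-Cd6-/- against WT cells and 19463 genes of Lat-/- against WT cells, edgeR recovered 190 of 200 changed genes in each. The simulation gave all genes the same spread beyond counting noise and changed only genes with many counts. It therefore cannot show how the tests perform where the spread differs between genes or counts are low.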

Additional observations from a re-analysis of the deposited data

Results flagged for a closer look

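The responses of 5 receptor genes differed between Lat-/- and WT cells by the test of the difference itself. At 4 h, the Lat-/- response minus the WT response was -1.80 for Il2ra, 1.67 for Il7r, -2.34 for Il15ra, and -1.42 for Il21r on the log2 scale. At 20 h, it was -3.78 for Il2ra, -1.30 for Il2rb, and 6.43 for Il7r. At 20 h, Il7r was called lower in WT and higher in Lat-/- cells.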

How the results depend on the processing

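Of 2981 values of single receptor genes under the alternatives, 2895 kept their side of the thresholds, 28 lost a call, and 58 gained one. Adjusted p alone, which reuses the main p-values and can only add calls, gave 36 of the 58. The 2895 include the comparisons of CD5/CD6 knockouts with WT cells, which had 0 calls throughout, so this total does not measure how stable the calls are. No called value changed sign. Among the 2895, 78 values that were not called changed sign. With adjusted p alone, 6 genes were called in Cd6-/- and 6 in Cd5-/-Cd6-/- cells at 4 h, 7 in LAT WT cells at 20 h, 4 in Lat-/- cells at 4 h, at 20 h, and between these times, and 5 in the difference of responses at 20 h. With library totals, 3 and 4 were called at 4 h in WT and Cd6-/- cells of the CD5/CD6 experiment. With filterByExpr or DESeq2, 1 was called between unstimulated Lat-/- and WT cells. Without each replicate in turn, the count at 4 h ran from 2 to 6 in CD5/CD6 WT, 2 to 5 in Cd6-/-, and 2 to 4 in LAT WT cells, and at 20 h from 1 to 2 in Lat-/- cells. With the replicate block, the count at 4 h in LAT WT cells was 3, through Il9r (adjusted p = 0.0628), and it changed no other call. Of the 8 genes, 0 were called between a CD5/CD6 knockout and WT cells, or in the difference of those responses, under each alternative run.

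Of 144 places in the level order, 93 were kept without division by length. Of the 21 most similar genes, 5 and 4 remained with the CD5/CD6 or the LAT table alone. Low counts limit Il9r at this depth, and 3 samples per condition limit the rest.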
